A study of Mus musculus with 4 samples.

Results

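RAD21 peaks were compared between wild-type mouse gastruloids and gastruloids of the HoxB mutant InsCBS5-10, both at 96 h after aggregation. The members are the peaks on chromosomes 1 to 19 of the 2 RAD21 peak lists, 57777 in wild type and 19163 in InsCBS5-10, together 76940 of the 193113 peaks in the 5 lists of the series. RAD21 and CTCF were mapped by ChIPmentation, chromatin immunoprecipitation in which the transposase Tn5 adds sequencing adapters while the chromatin is on the beads. Gastruloids are aggregates of embryonic stem cells that lengthen along a body axis in culture, and those of a sample were pooled before fixation. The mutant has HoxB Del on 1 chromosome and Del(i9-13):Ins(CBS5-10) on its partner: the former has no HoxB, and on the latter CTCF binding sites 5 to 10 were inserted in place of the stretch from Hoxb9 to Hoxb13. The InsCBS5-10 list comes from 1 library. The wild-type RAD21 list has no sample of its own here: its peak names give RAD21, wild type and 96 h. The number of libraries behind it, its depth and its origin are unknown here, and the series is marked as holding reused data, so genotype, library, depth and experiment cannot be told apart between both RAD21 lists, and no test between them was made.

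RAD21 is a subunit of cohesin, the ring that extrudes chromatin loops. CTCF, a zinc-finger DNA-binding protein, halts extruding cohesin at its sites, so that the 2 proteins share many peaks and mark the borders of chromatin domains. In Hox clusters such sites separate genes that are switched on at different times along the body axis. Cohesin is also known at active promoters and enhancers, where its loader has been mapped.

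Strong cohesin sites were common to both lists, while the longer wild-type list held many weaker peaks with no counterpart. Of InsCBS5-10 RAD21 peaks, 18114 of 19163 overlapped a wild-type RAD21 peak by 1 bp or more (94.5%, exact 95% interval 94.2 to 94.8), so 1049 (5.47%) had none. Of wild-type peaks, 17957 of 57777 (31.1%, interval 30.7 to 31.5) overlapped an InsCBS5-10 peak, and 39820 (68.9%) did not. The intervals cover counting error only. Fold enrichment, the authors' ratio of summit signal to local background, had a median of 4.19 in wild type and 6.17 in InsCBS5-10. Wild-type peaks were also wider, with a median of 480 bp against 302 bp, and covered 30.8 Mb against 6.3 Mb. When both lists were cut to their 19163 strongest peaks by −log10 q, 78.5% of wild-type peaks and 79.4% of InsCBS5-10 peaks were found in the other list. That cut ended at a −log10 q of 13.9 in wild type and took the whole InsCBS5-10 list, down to 1.3.

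Sequences at gene starts are shown for classes of site that the lists separate. The 6 promoters below come from the promoter sequences at hand, which need not hold every gene start. They are the 2 with the highest wild-type fold enrichment in each of 3 classes. Only named protein-coding genes whose 300 printed bases hold the RAD21 summit were taken, with chromosome 11 and predicted genes left out. The first class is shared RAD21 with CTCF, and the second wild-type RAD21 with CTCF but no RAD21 call in InsCBS5-10. The third is wild-type RAD21 with neither CTCF in wild type nor RAD21 in InsCBS5-10. The stronger peak by Napa (fold 10.9), named further below, lay in no promoter of this set. Capitals mark matches, on either strand, to a simplified search pattern written for this comparison after the core that CTCF is known to bind: CCA, any 2 bases, AG, any 2 bases, GGC. It is not a motif from a database, and it misses sites that differ from it by 1 letter. The sequences are from RefSeq on GRCm38.p6, the assembly that mm10 names, and run 5′ to 3′ on the strand of the gene, from 250 bases before its start to 50 after.
Vmn2r29: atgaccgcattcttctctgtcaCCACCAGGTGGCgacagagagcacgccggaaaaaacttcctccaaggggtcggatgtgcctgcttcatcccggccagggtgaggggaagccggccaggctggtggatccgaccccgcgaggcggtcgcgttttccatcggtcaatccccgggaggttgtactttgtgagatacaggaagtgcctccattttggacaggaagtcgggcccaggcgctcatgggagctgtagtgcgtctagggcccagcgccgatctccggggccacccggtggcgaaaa
Bdh2: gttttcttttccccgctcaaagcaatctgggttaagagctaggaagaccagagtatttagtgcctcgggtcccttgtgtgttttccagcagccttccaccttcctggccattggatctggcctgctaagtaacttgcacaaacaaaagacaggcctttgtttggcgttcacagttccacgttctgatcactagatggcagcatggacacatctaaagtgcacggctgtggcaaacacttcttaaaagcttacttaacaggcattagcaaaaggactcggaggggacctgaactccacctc
Ggct: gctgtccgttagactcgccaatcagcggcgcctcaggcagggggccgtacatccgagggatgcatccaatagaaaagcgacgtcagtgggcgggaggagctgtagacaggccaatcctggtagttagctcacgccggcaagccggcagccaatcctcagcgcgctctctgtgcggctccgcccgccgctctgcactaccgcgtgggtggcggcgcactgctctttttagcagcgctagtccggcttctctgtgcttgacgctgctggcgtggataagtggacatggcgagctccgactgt
Entpd6: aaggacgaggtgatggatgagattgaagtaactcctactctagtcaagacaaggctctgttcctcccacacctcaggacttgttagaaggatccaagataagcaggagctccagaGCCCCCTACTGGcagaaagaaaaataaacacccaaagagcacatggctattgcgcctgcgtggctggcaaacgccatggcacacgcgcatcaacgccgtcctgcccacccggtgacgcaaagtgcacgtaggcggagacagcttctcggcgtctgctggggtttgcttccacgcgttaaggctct
Arrdc4: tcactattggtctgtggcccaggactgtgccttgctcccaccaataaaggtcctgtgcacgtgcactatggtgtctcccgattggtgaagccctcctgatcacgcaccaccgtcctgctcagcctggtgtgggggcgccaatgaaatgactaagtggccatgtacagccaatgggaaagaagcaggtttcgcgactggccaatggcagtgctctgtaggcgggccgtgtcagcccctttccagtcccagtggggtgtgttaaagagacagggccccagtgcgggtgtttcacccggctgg
Senp2: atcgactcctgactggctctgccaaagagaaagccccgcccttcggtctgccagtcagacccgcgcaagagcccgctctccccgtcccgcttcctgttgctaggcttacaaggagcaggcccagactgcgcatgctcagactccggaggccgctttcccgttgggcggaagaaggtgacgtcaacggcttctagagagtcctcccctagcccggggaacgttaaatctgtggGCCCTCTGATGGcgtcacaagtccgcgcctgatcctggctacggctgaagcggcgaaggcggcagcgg

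The shared pair were Vmn2r29, a vomeronasal receptor gene (chr7:7278240-7278539, minus strand), and Bdh2, a dehydrogenase gene (chr3:135280971-135281270, plus strand). RAD21 fold enrichment at Vmn2r29 was 15.0 in wild type and 5.05 in InsCBS5-10, and at Bdh2 it was 13.6 and 8.2. The promoter of Vmn2r29 holds the motif once, on the strand of the gene, and that of Bdh2 does not hold these letters. The match at Vmn2r29 spans −228 to −217 from the gene start, while the wild-type RAD21 summit lay 5 bp from the start. It is outside the InsCBS5-10 RAD21 peak (7277993 to 7278349). Ggct, a gene of glutathione turnover (chr6:54992818-54993117, minus strand), and Entpd6, a nucleotidase gene (chr2:150748830-150749129, plus strand), had wild-type RAD21 at 9.67 and 9.3 and CTCF in both genotypes, but no RAD21 call in InsCBS5-10. The motif stands once in Entpd6, on the other strand, and not in Ggct. Arrdc4, an arrestin-domain gene (chr7:68749189-68749488, minus strand), and Senp2, a SUMO protease gene (chr16:22009234-22009533, plus strand), had wild-type RAD21 at 8.95 and 7.99, with no CTCF call in either genotype. Senp2 holds the motif once, on the other strand, and Arrdc4 does not. The motif thus does not set the classes apart among these printed promoters.

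Over all promoters of the table, the motif followed the CTCF and sharing classes. It was in 748 of 30649 promoters (2.44%, interval 2.27 to 2.62). Of promoters with a shared RAD21 summit and CTCF, 93 of 420 held it (22.1%, 18.3 to 26.4). Where RAD21 with CTCF was called in wild type only, 114 of 985 did (11.6%, 9.64 to 13.7). Where RAD21 was called in wild type only and without CTCF, 85 of 4304 did (1.97%, 1.58 to 2.44), close to the 1.82% (1.66 to 1.99) of the 24907 promoters with no RAD21 summit in either list. The median wild-type RAD21 fold was 7.55, 4.31 and 3.59 in these classes in the same order, so strength moves with the motif, and its part was not tested. A match describes the letters in the window and is no evidence of a bound site.

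CTCF was present at nearly all shared peaks and at a minority of the others. CTCF of the same genotype overlapped 31605 of 57777 wild-type RAD21 peaks (54.7%) and 16304 of 19163 InsCBS5-10 RAD21 peaks (85.1%). Among wild-type RAD21 peaks found in InsCBS5-10, 97.3% (97.1 to 97.6) had wild-type CTCF, against 35.5% (35.0 to 36.0) of those not found. Read the other way, 55.3% (54.7 to 55.8) of the wild-type peaks with CTCF were found in InsCBS5-10, and 1.84% (1.68 to 2.01) of the 26172 without. Of InsCBS5-10 peaks found in wild type 88.1% had CTCF of their own genotype, and of the 1049 others 33.0% did. With the 19163 strongest peaks of each RAD21 list the order of both genotypes turned, with CTCF at 93.9% of wild-type peaks and at 85.1% of InsCBS5-10 peaks. The CTCF list of InsCBS5-10 was shorter, at 33698 peaks against 46670, and with these cut to equal length as well the shares were 91.6% and 85.1%.

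The wild-type CTCF list accounted for most InsCBS5-10 RAD21 peaks that had no CTCF of their own. It overlapped 94.4% (94.1 to 94.7) of all InsCBS5-10 RAD21 peaks, more than the 85.1% (84.6 to 85.6) that overlapped CTCF of the same genotype. Among InsCBS5-10 RAD21 peaks found in wild type, 1702 had CTCF called in wild type alone and 86 in InsCBS5-10 alone. From the CTCF side, 68.6% (68.2 to 69.1) of wild-type CTCF peaks overlapped wild-type RAD21, and 48.4% (47.8 to 48.9) of InsCBS5-10 CTCF peaks overlapped InsCBS5-10 RAD21. The wild-type RAD21 list covered more of the InsCBS5-10 CTCF peaks than the RAD21 list of that genotype did, at 78.0% (77.5 to 78.4). A larger list meets more peaks at 1 bp by its size alone. Wild-type RAD21 covered 30.8 Mb against 6.3 Mb, and wild-type CTCF had 46670 peaks against 33698. The shares of this paragraph are therefore not read as traits of the genotypes.

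The strength of a peak in its own list went with its call in the other. Wild-type peaks were split into 10 classes by fold enrichment (deciles). In the weakest, at folds of 1.4 to 2.75, 2.46% (2.07 to 2.89) were found in InsCBS5-10, in the eighth 59.4% (58.1 to 60.7), and in the strongest, at folds of 8.71 to 39.5, 97.1% (96.6 to 97.5). Wild-type CTCF rose along the same classes from 17.8% to 99.5%. Within a class, peaks with CTCF were found more often than peaks without it: 26.8% against 2.51% in the sixth, 66.0% against 12.5% in the eighth, and 86.4% against 35.6% in the ninth. In the strongest class only 28 peaks had no CTCF, and 71.4% of them were found. InsCBS5-10 peaks were found in wild type at 68.3% (66.1 to 70.4) in the weakest class and at 98.5% or more from the fourth class upward.

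**Figure D1:**
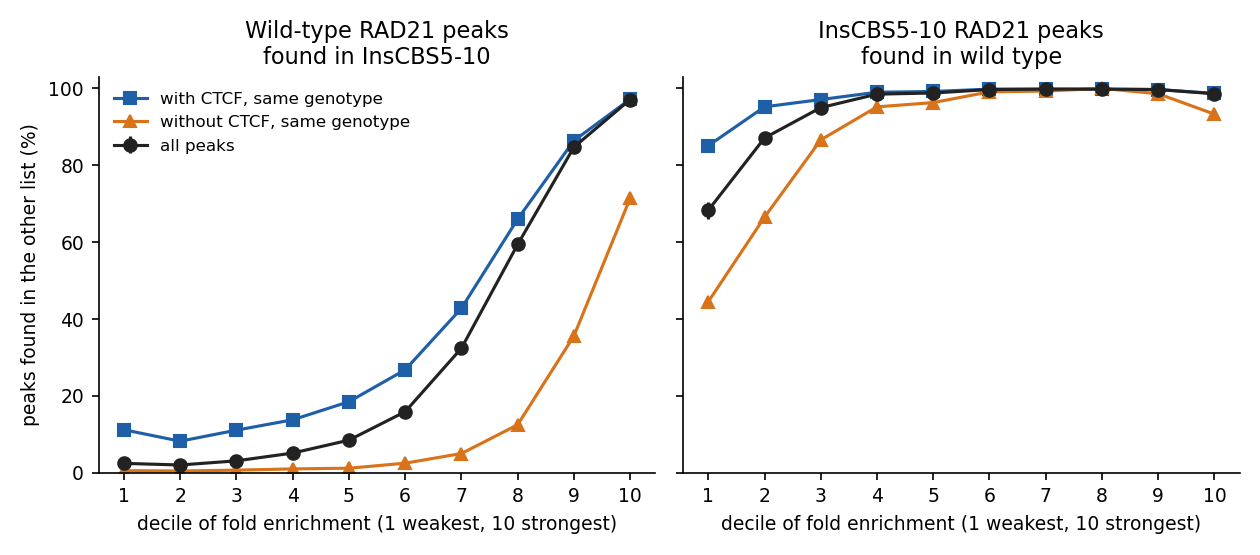
Share of RAD21 peaks found in the other RAD21 list (y axis, percent) by decile of fold enrichment within the peak's own list (x axis). Black circles show all peaks with exact 95% intervals, blue squares peaks with CTCF of the same genotype and orange triangles peaks without it. Wild-type peaks lie at 2.46% in the first decile and 97.1% in the tenth, while InsCBS5-10 peaks start at 68.3%.

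Where a strong wild-type RAD21 peak with CTCF was not called in InsCBS5-10, its CTCF call was missing there more often as well. In the strongest class, 159 such peaks had no RAD21 call in InsCBS5-10, and CTCF was missing from InsCBS5-10 at 14.5% of them (9.4 to 20.9), against 3.83% (3.34 to 4.36) of the 5591 found. In the ninth class the shares were 17.5% (14.8 to 20.3) and 8.26% (7.5 to 9.08), and in the eighth 23.3% (21.3 to 25.4) and 11.5% (10.5 to 12.7). Most strong peaks without a RAD21 call therefore still had a CTCF call in InsCBS5-10. In the strongest class, peaks without a RAD21 call had somewhat weaker wild-type CTCF, with a median fold of 8.51 against 10.6. Their wild-type RAD21 was weaker too, at 9.16 against 10.0. In the ninth class the RAD21 medians were 7.56 against 7.83, and in the eighth 6.23 against 6.41. The part of these differences in the missing calls was not tested.

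The order of strength of shared peaks was alike in part between both lists. At the 18114 shared InsCBS5-10 peaks, the median percentile rank of fold enrichment was 83.4 in the wild-type list and 52.5 in the InsCBS5-10 list. The median difference, InsCBS5-10 minus wild type, was −25.6 percentile points (quartiles −43.3 and −9.46). Shared peaks make up nearly all of the short list and the upper part of the long one, so a lower percentile in the short list follows from the lengths and shows no change of binding. Split by CTCF, taken here at the RAD21 interval of each genotype's own list (the counts of 1702 and 86 above take both CTCF lists at the InsCBS5-10 interval), the median difference was −24.5 at 15886 peaks with CTCF in both genotypes, −33.1 at 1751 with CTCF in wild type only, −37.7 at 72 with CTCF in InsCBS5-10 only, and −35.1 at 405 with CTCF in neither. Ranked among shared peaks only, these medians became 0.33, 0.491, 0.182 and 1.54, with quartiles of −14.3 and 14.8 in the first class and of −9.53 and 12.1 in the last. On this scale the median over all shared peaks lies near 0 by construction, so the spread is what it describes: the quartiles over all of them were −14.2 and 14.7 points. The median wild-type fold was 7.72, 6.35, 4.99 and 5.0 in the 4 CTCF classes. Across shared peaks, fold enrichment in both lists had a Spearman correlation of 0.655 (n = 18114, peaks within 1 pair of lists). The distance between paired summits had a median of 23 bp, with 22 bp where CTCF was in both and 38 bp where it was in neither, and 93.4% of pairs lay within 100 bp.

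**Figure D2:**
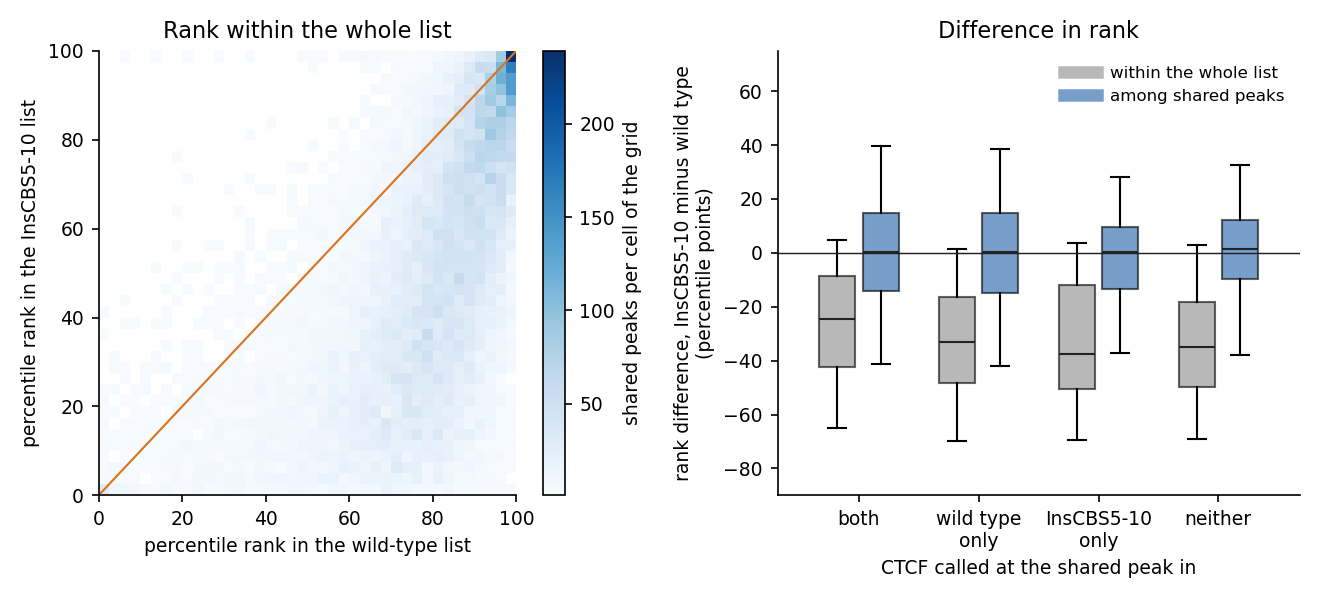
Left, percentile rank of fold enrichment of each shared RAD21 peak in the wild-type list (x axis) and the InsCBS5-10 list (y axis), as peaks per cell of a grid, with the line of equal rank in orange. Right, the rank difference in percentile points by CTCF call, for ranks within the whole list (grey) and among shared peaks (blue); boxes are quartiles with the median and whiskers reach the 5th and 95th percentiles. Grey medians lie from −37.7 to −24.5 and blue ones from 0.182 to 1.54.

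Wild-type RAD21 peaks without a counterpart lay at gene starts more often than shared ones. A RefSeq gene start lay within 500 bp of the summit at 21.4% (20.9 to 21.9) of the 24650 wild-type peaks with neither CTCF nor an InsCBS5-10 call. The share was 10.0% (9.54 to 10.6) of those with CTCF and no InsCBS5-10 call, and 3.84% (3.55 to 4.14) of shared peaks with CTCF. Among the 457 shared peaks without CTCF it was 3.06% (1.68 to 5.09), an interval that holds the share with CTCF. Counted on the InsCBS5-10 list, the share at shared peaks was 4.08% (3.26 to 5.03) without CTCF and 3.64% (3.35 to 3.95) with it. A clearly higher share without CTCF was thus seen among wild-type peaks that InsCBS5-10 lacked, and not among shared ones. Over all InsCBS5-10 RAD21 peaks it was 3.54% (3.27 to 3.81), against 13.2% (12.9 to 13.5) over all wild-type peaks. In the sixth decile of all wild-type peaks, 26.9% of those without CTCF and 10.7% of those with it lay at a start. Of wild-type peaks at gene starts, 3.64% were found in InsCBS5-10 in the sixth decile, against 15.9% of all wild-type peaks of that decile. In the strongest decile the shares were 94.9% and 97.1%. Chromosome 11 from Hoxb13 on, where gene positions do not match the annotation, was left out of the counts at gene starts but not of the shares over whole deciles.

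**Figure D3:**
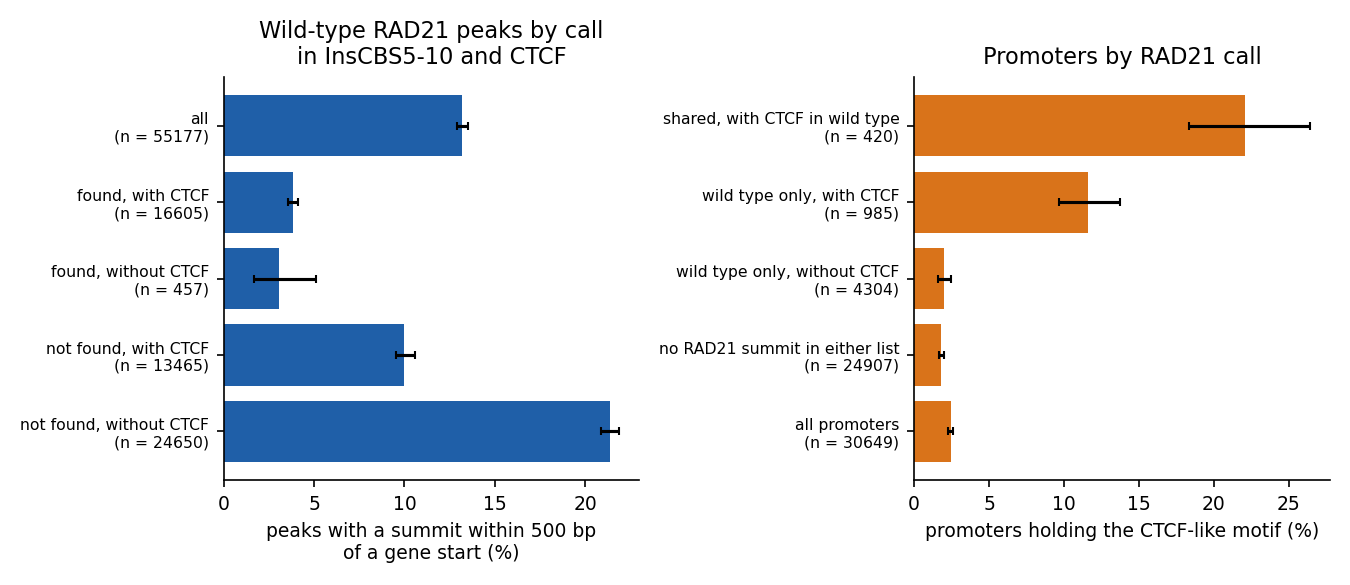
Left, share of wild-type RAD21 peaks with a summit within 500 bp of a gene start (x axis, percent) by call in InsCBS5-10 and by CTCF in wild type. Right, share of promoters that hold the CTCF core pattern (x axis, percent) by RAD21 call; bars in both panels carry exact 95% intervals. Peaks without CTCF or a call in InsCBS5-10 are highest on the left (21.4%), and promoters with shared RAD21 and CTCF are highest on the right (22.1%).

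Among the strongest wild-type RAD21 peaks within 1 kb of a gene end and missing from InsCBS5-10, all 8 had CTCF in all 3 CTCF lists. Chromosome 11 was left out of this ranking. The strongest lay by Susd2 (chromosome 10, 75635504 to 75636256, fold enrichment 12.4, −log10 q 53.7), which ranked at the percentile 99.4 of its list. It was followed by Napa, the vesicle fusion factor alpha-SNAP (chromosome 7, 16097864 to 16098705, 10.9), and Smc3, a core subunit of the cohesin ring itself (chromosome 19, 53599666 to 53600417, 10.4). Smc3 had another RAD21 peak within 5 kb of an end in InsCBS5-10, at 9.09. The others were by Mc5r, a melanocortin receptor gene (9.74), Ggct (9.67), Kptn (9.36), LOC115488029 (9.35) and Entpd6 (9.3). At these sites CTCF fold enrichment ranged from 9.63 to 14.9 in wild type and from 4.94 to 11.2 in InsCBS5-10. CTCF at all 8 is not particular to them. In the strongest decile, where they lie, 99.5% of wild-type RAD21 peaks had wild-type CTCF. Of the 159 peaks there with CTCF but no RAD21 call in InsCBS5-10, 14.5% lacked CTCF in InsCBS5-10.

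InsCBS5-10 RAD21 peaks near gene ends and missing from wild type were weaker. The 8 strongest had folds of 4.44 to 5.91 and ranked at percentiles of 22.2 to 46.1 in their list. They lay by Gm38706 (chromosome 6, 130579114 to 130579439, 5.91), Gm29758 (5.81), Zfp996, a zinc-finger gene (5.39), Slc30a4, a zinc transporter gene (4.64), LOC115488002 (4.63), Smim13 (4.54), Gm47655 (4.52) and Eef2, the translation elongation factor (chromosome 10, 81182209 to 81182439, 4.44). InsCBS5-10 CTCF was called at 5 of the 8, beside 33.0% of all 1049 InsCBS5-10 peaks missing from wild type. The peak by Gm38706 had no CTCF in any list. Without a limit on distance to genes, the 20 strongest InsCBS5-10 peaks missing from wild type had folds of 13.3 to 39.4. None of them lay within 1 kb of a gene end, beside 8.4% of the 262 InsCBS5-10 peaks of such folds found in wild type. So few peaks cannot set these shares apart. CTCF was called in all 3 CTCF lists at 18 of these 20, with a median CTCF fold of 14.0 in the wild-type list, 17.2 in that of InsCBS5-10 and 20.5 in that of DelCBS7-10, the mutant that also lacks sites 7 to 10. Of the 262 InsCBS5-10 peaks with folds of 13.3 or more that were found in wild type, 258 (98.5%) had CTCF in all 3 lists, so such CTCF is not particular to the missing ones. The medians over all CTCF peaks were 5.61, 5.57 and 5.31. The strongest lay on chromosome 5 (60042722 to 60043068), with a RAD21 fold of 39.4 and CTCF folds of 12.7, 37.3 and 38.6 in the same order.

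Shared peaks near gene ends with the largest rises in percentile rank went up by 17.4 to 50.8 points, and the largest falls were of −99.5 to −83.1 points. In this order, which rests on ranks within the whole lists, the largest rise was by Pdgfra, a growth factor receptor gene of mesoderm (chromosome 5, 75151206 to 75151473), from the percentile 20.6 at a fold of 3.09 in wild type to 71.4 at 7.84 in InsCBS5-10. Kmt2a, a histone H3 methyltransferase gene, went from 19.4 to 55.2 (folds 3.05 and 6.54). Lars2, the mitochondrial leucyl-tRNA synthetase gene, went from 71.2 to near the top of the list (folds 5.88 and 33.5). CTCF there was far above the list medians in wild type (23.5 against 5.61), InsCBS5-10 (29.0 against 5.57) and DelCBS7-10 (31.0 against 5.31). What lies behind the high signal at this place was not tested. Rises at Yars2, Hapln2, Arhgap25, Rcc1 and Crebzf were of 23.2, 22.2, 21.1, 18.8 and 17.4 points. Ranked among shared peaks only the order differed, with 75.9 points at Lars2, 70.6 at Yars2, 70.0 at Hapln2, 68.5 at Pdgfra and 51.6 at Kmt2a. The largest computed fall was by Tmcc2 (chromosome 1), from near the top at a fold of 15.3 to the percentile 0.417 at 2.45. There the InsCBS5-10 interval (132356332 to 132356501) met only the edge of the wild-type one (132355423 to 132356371). Another InsCBS5-10 peak inside the same wild-type interval (132355831 to 132356133) had a fold of 13.6 and the percentile 98.7, so the site kept a strong RAD21 call. The wild-type interval by Islr2 likewise met another InsCBS5-10 peak (58204599 to 58204993), at 10.6 and the percentile 91.6. Vps37c, an endosomal sorting gene, differed by −87.0 points, Mrvi1 by −86.2, and Psmd8, a proteasome subunit gene, by −85.6. Falls at Islr2, Fitm2, Ctxn1 and Pax1, a sclerotome regulator, were from −84.7 to −83.1 points. The fall by Pax1 was at a peak with folds of 7.97 in wild type and 3.12 in InsCBS5-10. The strongest RAD21 summit within 5 kb of an end of Pax1 was another, at 8.44 and 8.03. Among shared peaks only, the differences were −77.6 at Psmd8, −70.3 at Mrvi1 and −61.7 at Vps37c. A peak of unchanged strength also has a lower percentile in the shorter list, so these falls are read beside the median of −25.6.

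At HoxB, the edited locus, both lists had RAD21 at the same 2 CTCF sites between Hoxb13 and Hoxb9 on the edited chromosome. The wild-type list had many further peaks in the cluster. From 100 kb before Hoxb13 to 100 kb beyond Hoxb1, wild type had 22 RAD21 peaks, of which 6 were found in InsCBS5-10 and 12 had CTCF. InsCBS5-10 had 7, of which 6 were found in wild type and 5 had CTCF. All libraries were aligned to a chromosome 11 that carries the edit, so the wild-type sequence between Hoxb9 and Hoxb13 that the mutant lacks has no place on it. Sites 5 to 10 were inserted in this interval. Wild-type peaks called there have the positions and spacing of the edited chromosome, which is shorter by an estimated 64.5 kb, and not those of the wild-type one. Wild type has 2 copies of HoxB and InsCBS5-10 has 1, and copy number and genotype cannot be told apart at this locus.

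In the interval between Hoxb13, the most posterior gene of the cluster, and Hoxb9, wild-type RAD21 had peaks from 96199967 to 96200193, with a fold of 4.73 and a −log10 q of 20.3, and from 96200473 to 96200825, with 5.96 and 32.7. InsCBS5-10 had the overlapping peaks 96199955 to 96200179 (5.75 and 8.79) and 96200572 to 96200753 (6.2 and 10.4). CTCF was called at both sites in both genotypes. The CTCF peaks that flank them, at 96199505 and 96201521 in wild type, had no RAD21 in either list. A wild-type peak at the start of Hoxb13 (96194032 to 96194211, 2.56 and 1.5) had no CTCF and no counterpart.

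Before Hoxb13, the site at 96145524 to 96146134 had the highest RAD21 fold enrichment of the locus in both lists, 11.3 in wild type and 11.4 in InsCBS5-10. By −log10 q it was not the highest in wild type, at 51.4 against 73.9 at 96214133 and 54.4 at 96238441. In InsCBS5-10 its −log10 q of 35.4 was the highest. The wild-type peaks at 96127122 (5.99) and 96133568 (4.93) were not called in InsCBS5-10, although CTCF was called there in both genotypes. From Hoxb9 to Hoxb1, 2 of 13 wild-type peaks were found in InsCBS5-10. These lay between Hoxb9 and Hoxb8 (96214133 to 96214820, 7.87, against 6.8) and between Hoxb6 and Hoxb5 (96238441 to 96239237, 6.66, against 6.7). The site within Hoxb6 (96229775 to 96230551, 4.49) had CTCF in both genotypes but RAD21 in wild type only. The site within Hoxb3 at 96247020 (4.69) had both CTCF and RAD21 in wild type only. The remaining 9 had no CTCF in either genotype and folds of 2.0 to 3.75, among them a peak within Hoxb9 (96207463 to 96207848, 3.75) and both peaks between Hoxb2 and Hoxb1 (3.31 and 3.53).

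Beyond Hoxb1, the anterior end of the cluster, 1 of 3 wild-type peaks was found. This was the site at 96343089 to 96343662 (5.43), with an InsCBS5-10 fold of 5.22 and CTCF called in wild type only. The wild-type peaks at 96335155 (5.81) and 96374143 (5.68) had no counterpart, and at the latter CTCF was called in both genotypes. The InsCBS5-10 peak at 96347581 to 96347761 (4.41) was the only one of the locus that wild type lacked, and CTCF was called there in wild type only. The 6 of 22 wild-type peaks found at HoxB are to be read beside the 31.1% found over all wild-type peaks, and the locus is not called particular from them.

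**Figure D4:**
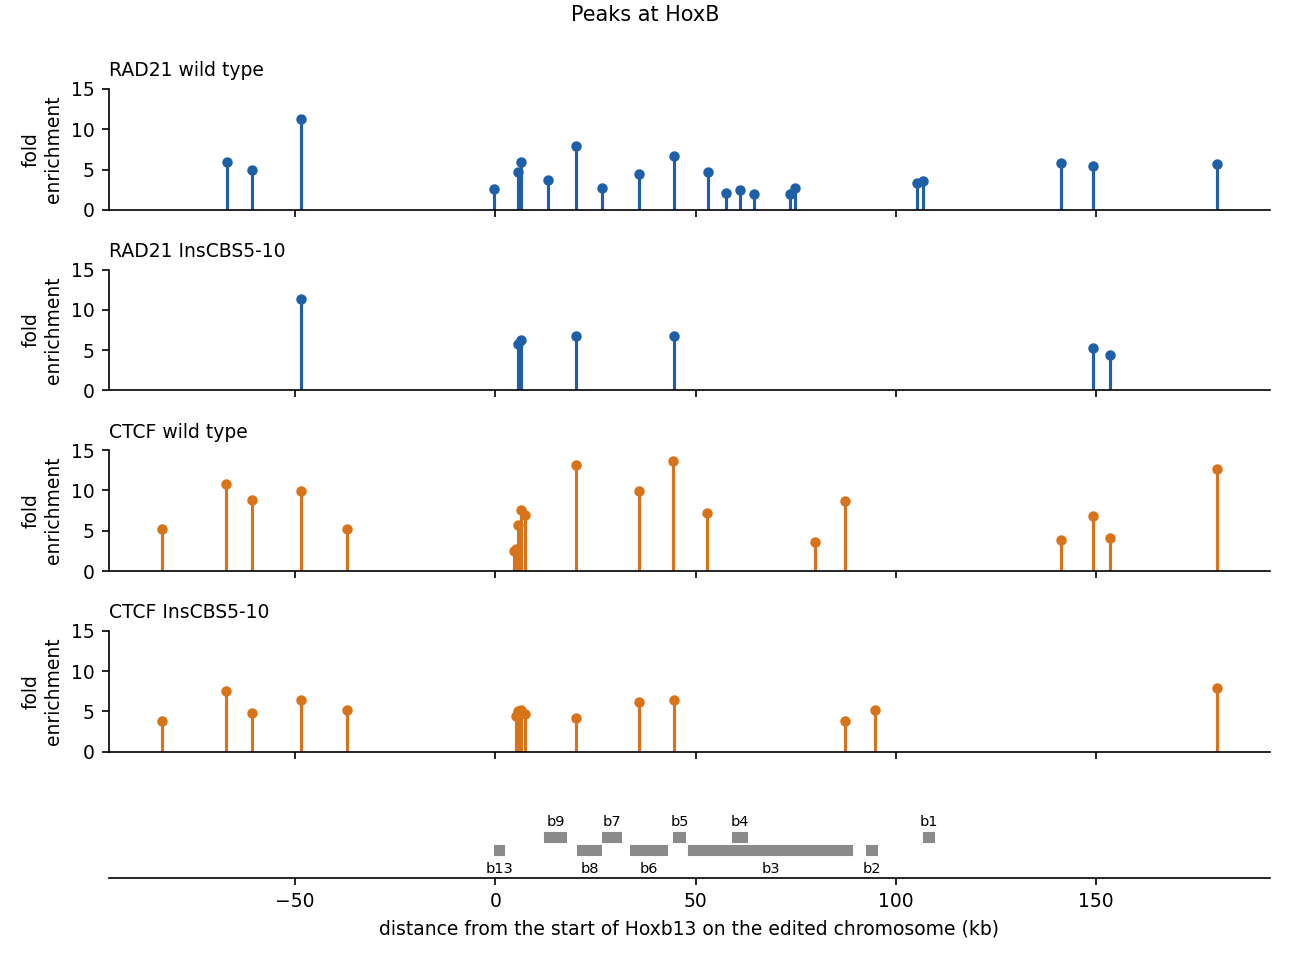
RAD21 (blue) and CTCF (orange) peaks at HoxB in wild type and InsCBS5-10, as fold enrichment (y axis) at the summit's distance from the start of Hoxb13 on the edited chromosome (x axis, kb), with Hoxb genes as grey bars. RAD21 in InsCBS5-10 has 7 peaks, with 2 in the interval between Hoxb13 and Hoxb9 where wild type also has 2. Wild-type peaks in this interval are drawn at positions of the edited chromosome, not at wild-type spacing.

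In the other Hox clusters every InsCBS5-10 peak was found in wild type, beside 94.5% over all peaks, and the counts of wild-type peaks found are to be read beside 31.1%. In HoxA, 4 of 21 wild-type RAD21 peaks were found in InsCBS5-10, and all 4 InsCBS5-10 peaks were found in wild type. The strongest wild-type peak (chromosome 6, 52221332 to 52222409, 9.88) lay 1298 bp from an end of Hoxa9 and had an InsCBS5-10 fold of 10.9. The strongest InsCBS5-10 peak lay by Hoxa13 (52256904 to 52257360, 12.1, against 9.78 in wild type). In HoxC, 4 of 10 wild-type peaks and 4 of 4 InsCBS5-10 peaks were found, and the strongest lay by Hoxc8 in wild type (chromosome 15, 102986954 to 102987977, 10.4, against 9.58) and by Hoxc10 in InsCBS5-10 (13.6, against 10.0). In HoxD, 6 of 17 and 6 of 6 were found, with the strongest within Hoxd3 in wild type (chromosome 2, 74715594 to 74716610, 9.18, against 11.5) and within Hoxd10 in InsCBS5-10 (74691634 to 74691999, 13.4, against 8.17). The median wild-type fold was 2.86, 4.73 and 3.51 in the 3 clusters, and the median InsCBS5-10 fold was 9.8, 7.42 and 9.31.

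Genes of the body axis were next compared by RAD21 summits within 5 kb of an end, in 12 lists. Of 20115 protein-coding genes, 71.0% had such a summit in wild type and 25.5% in InsCBS5-10, and 35.6% of the genes with one in wild type also had one in InsCBS5-10. Of 157 listed genes measured, 131 had a summit in the wild-type list, 77 in the InsCBS5-10 list and 75 in both. Neighbouring Hox genes share peaks, so they are not independent counts.

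Signalling genes of axis elongation mostly kept a call in both lists. Of 12 Wnt and Fgf genes, all 12 had a wild-type summit and 10 had one in InsCBS5-10 too, and the 2 without were Fgf4 (wild-type fold 3.2) and Lef1 (2.65). Fgf8, a ligand of the growth zone, had 7.99 in wild type and 7.59 in InsCBS5-10, and Wnt5b had 9.46 and 9.28. Wnt3a, a ligand that maintains axial progenitors, had 5.16 and 3.29. Fgf18 had 8.05 and 12.9. Of 11 tailbud regulators, 11 had a wild-type summit and 7 an InsCBS5-10 one. Cyp26a1, which degrades retinoic acid, had 8.78 and 9.08, and Gdf11, a signal of the trunk-to-tail transition, had 9.45 and 5.76. T, the gene of brachyury, had a summit in wild type only (4.13), as did Msgn1 (4.74), Sp5 (3.25) and Nkx1-2 (2.68).

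Lists of differentiating tissues varied. Of 16 somite genes, 14 had a wild-type summit and 7 both. Foxc2, a mesoderm regulator, had 12.2 and 13.2, and Lfng, a modifier of Notch in the segmentation clock, had 9.81 and 10.2. Those in wild type only were Meox2 (4.13), Dll1 (4.06), Mesp2 (3.75), Mesp1 (3.74), Pax3 (3.49), Ripply2 (3.25) and Foxc1 (2.69). Of 15 neural tube regulators, 10 had a wild-type summit, 11 an InsCBS5-10 one and 9 both, and Shh, the ventral signal, had 9.94 and 11.2. Irx5 was in wild type only (5.94). The 2 called in InsCBS5-10 only were Nkx6-1 and Nkx6-2. For Nkx6-1 the window decided the call: the InsCBS5-10 summit (9.74) lay 4986 bp from an end, and the summit of the overlapping wild-type peak (9.13) lay 5011 bp away. The peak by Nkx6-2 (3.21) had no wild-type peak at its place. Of 14 endoderm and heart regulators, 7 had a wild-type summit and 3 both, those of Gata4 (8.55 and 5.94), Foxf1 (8.06 and 8.78) and Foxa1 (3.97 and 3.7). Sox17, Gata6, Isl1 and Hand2 were in wild type only, at folds of 2.55, 2.67, 2.9 and 2.52.

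Of 13 pluripotency genes, 9 had a wild-type summit and 2 had both. That is 15.4% with an InsCBS5-10 summit, beside 25.5% of all protein-coding genes, a gap that so few genes cannot set apart from the background. The 2 were Pou5f1, the gene of OCT4 (4.82 and 4.29), and Klf4 (6.04 and 4.68). Lin28a (4.76), Dppa3 (4.48), Zfp42 (4.07), Utf1 (3.84), Klf2 (3.71), Tfcp2l1 (2.97) and Otx2 (2.48) were in wild type only. Of 14 genes of CTCF and the cohesin machinery, 12 had a wild-type summit and 4 both: Smc3, the cohesin regulators Pds5a (5.8 and 5.99) and Pds5b (7.57 and 4.93), and Top2b, a topoisomerase gene (10.3 and 7.32). The wild-type-only calls were by Ctcf itself (7.88), Sgo1 (5.14), Esco1 (4.62), Cdca5 (3.86), Wapl, which releases cohesin (3.62), Esco2 (3.37), Mau2 (3.21) and Rad21 (2.86). Of 21 imprinted genes, 17 had a wild-type summit and 7 both, among them Plagl1 (11.6 and 11.2), Magel2 (9.61 and 11.6) and Phlda2 (9.22 and 11.6). In wild type only were Snrpn (4.87), Ndn (4.33), Ube3a (4.15), Gnas (4.04), Nnat (3.84), Zim1 (3.79), Igf2r (3.65), Impact (3.64), Dlk1 (2.78) and Cdkn1c (2.74).

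In HoxB, the genes with a wild-type summit only were Hoxb7 (4.49), Hoxb1 (3.53) and Hoxb4 (2.5), in HoxC Hoxc13 (3.35), and in HoxD Hoxd1 (4.47) and Hoxd4 (3.51). All 6 of these had folds below the wild-type median of 5.14 for the listed genes with a summit.

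**Figure D5:**
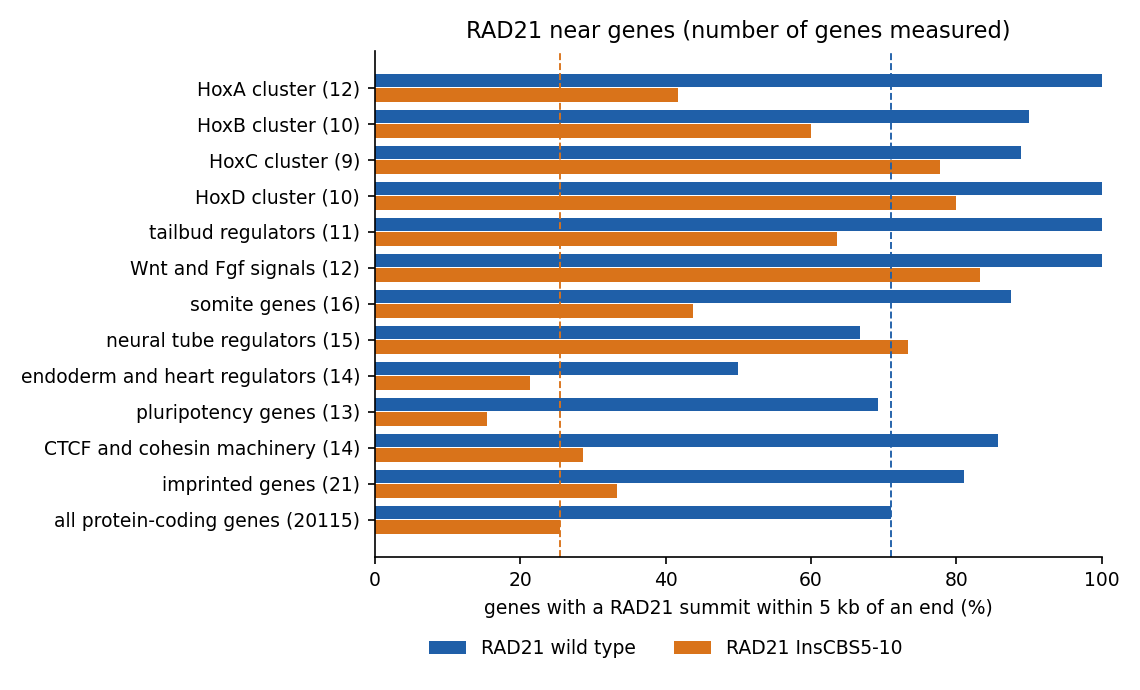
Share of genes with a RAD21 summit within 5 kb of an end (x axis, percent) in wild type (blue) and InsCBS5-10 (orange) for each list, with the number of genes measured; dashed lines show all protein-coding genes (71.0% and 25.5%). In InsCBS5-10, Wnt and Fgf genes are highest at 83.3% and pluripotency genes lowest at 15.4%.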

How the data were processed

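The deposited values are narrowPeak lists. The submitters' processing notes name cutadapt 4.1, MACS2 2.2.7.1 and build mm10 for the samples; the wild-type RAD21 list has no sample and so no notes. Peak names in the deposited lists give an edited mm10 with 2 versions of chromosome 11, of which the version without HoxB was left out. Fold enrichment is the authors' ratio at the summit to local background. The deposited −log10 q was computed within each list, with a smallest value of 1.3. For aligner, control library and caller options the sources used here give nothing, and without read numbers depth is unknown.

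Rows with equal intervals were merged to the summit of highest −log10 q. A peak was found in another list at 1 bp of overlap, and each InsCBS5-10 peak was paired with the wild-type peak it overlapped most. Shares carry exact Clopper-Pearson 95% intervals (scipy 1.17.1). Gene ends and starts are RefSeq on GRCm38.p6. Beyond Hoxb13 the edited chromosome 11 is shorter by an estimated 64.5 kb, the offset that put the most summits of all lists within 200 bp of gene starts (157, against at most 89 at offsets over 1 kb away). It was used for Hoxb genes only, and other genes beyond Hoxb13 were not measured. Start counts leave out chromosome 18, whose promoters were not used here. Named peaks are the first 8 of each set within 1 kb of a protein-coding gene end, chromosome 11 left out; the shared ones are in the stronger 50% of a list. Single genes of the HoxA list with a call in wild type only are not reported here. Members and gene lists were chosen with earlier results of these data known. The calculation was tested on simulated lists. The alternatives were other overlap rules, a −log10 q of 5, lists of equal length, other sets of chromosomes, unmerged rows and other ranks.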

Additional observations from a re-analysis of the deposited data

How the results depend on the processing

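No paired analysis was possible because each group has 1 list. The share of wild-type RAD21 peaks found in InsCBS5-10 was 31.1%, the reverse share 94.5%, and the shares with CTCF of the same genotype 54.7% in wild type and 85.1% in InsCBS5-10. In the same order they were 10.5%, 93.8%, 32.1% and 80.7% where 0.5 of the peak length had to be covered, which the wider wild-type peaks meet less often by construction. They were 29.3%, 88.3%, 49.5% and 80.5% for summits within 100 bp, and 41.4%, 97.9%, 70.3% and 84.0% at a −log10 q of 5 or more. With RAD21 lists of equal length the shares but the last were 78.5%, 79.4% and 93.9%, and wild-type RAD21 with CTCF was 91.6% with CTCF lists of equal length too, a setting chosen after seeing the data. It was 54.2% without chromosome 11 and 55.9% with every summit kept, where 32.1% of wild-type RAD21 peaks were found in InsCBS5-10. Adding chromosomes X and Y left all 4 within their intervals. The rank difference with CTCF in both (−24.5) was −23.1 for summits within 100 bp, −19.5 at a −log10 q of 5 or more, and −25.5 ranked by −log10 q, and it turned to 1.1 at equal length and to 0.33 among shared peaks. With CTCF in neither (−35.1) it was −31.5 at a −log10 q of 5 or more and −3.01 at equal length, and turned to 1.54 among shared peaks. The rank difference thus depends on list length, and depth, which is unknown, limits every missing call.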

Other observations

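Some windows held many InsCBS5-10 RAD21 peaks missing from wild type, and these windows were picked out after the data were seen. The 4 windows of 2 Mb with the most such peaks held 98 of the 1049 (9.34%) and 0.908% of all InsCBS5-10 peaks. Because the windows were chosen by this count, the higher share of missing peaks follows from the choice. Whether the missing peaks cluster was not tested. The first, on chromosome 8 from 20000001 to 22000000, spans genes of defensins, antimicrobial peptides (28 named Defa and 10 named Defb among 49 protein-coding genes). There 31 of 53 InsCBS5-10 peaks had no wild-type counterpart, with a median fold enrichment of 2.45, and 22 of the 31 had CTCF of the same genotype, beside 33.0% of all 1049. On chromosome 1 from 84000001 to 86000000 it was 26 of 49, and on chromosome 14 it was 24 of 39 from 4000001 to 6000000 and 17 of 33 from 6000001 to 8000000. CTCF of the same genotype was at 14 of these 26, 8 of 24 and 5 of 17. Wild type had 78, 62, 42 and 46 RAD21 peaks in these windows in the same order, of which 22, 23, 15 and 16 were found in InsCBS5-10. By chromosome, the share of InsCBS5-10 peaks found in wild type ranged from 90.1% on chromosome 12 to 97.8% on chromosome 11, and the share of wild-type peaks found in InsCBS5-10 from 28.5% on chromosome 13 to 35.0% on chromosome 19.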
